A study of Mus musculus with 14 samples.

Results

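The 10 genes described here encode heat shock proteins and chaperones, and they were taken by name from a table of 55487 genes measured in small sorted pools of mouse mast cells. They are the Hsp70 family members Hspa8, Hspa1a, Hspa1b and Hspa5, the Hsp110 member Hsph1, the Hsp90 member Hsp90aa1, the co-chaperones Dnajb1 and Bag3, and the mitochondrial chaperonin genes Hspd1 and Hspe1. All 10 passed the filter on low counts, as did 21014 genes in all. The mast cells came from the ear skin of mice that were either not treated or treated with MC903 (calcipotriol, an analogue of vitamin D that produces a dermatitis resembling atopic dermatitis on mouse skin). Resident cells of untreated mice gave 5 libraries (numbers 1 to 5), resident cells of mice given MC903 gave 5 (6 to 10), and cells that the sample labels call bone marrow mast cells, also after MC903, gave 4 (11, 13, 14 and 15). Each library held at most 100 cells pooled from both ears. The extraction protocol and the design text speak only of resident and integrin β7-positive mast cells, while the sample labels of the last group say bone marrow, so the sort marker was examined first. The labels give no strain, sex, age, genotype, dose, day or animal number. P-values therefore measure the spread between these libraries, which may in part be technical. Whether MC903 resident and bone marrow libraries came from the same mice is not given either, and the fit treated them as separate samples.

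Chaperones bind unfolded stretches of other proteins and keep them from clumping until they fold, are carried across a membrane or are destroyed. Hsp70 proteins do this in cycles of ATP hydrolysis that J-domain proteins such as Dnajb1 start and nucleotide exchange factors such as Hsph1 and Bag3 end, and clients can then pass to Hsp90. The inducible genes of the family are switched on by heat shock factor 1 when unfolded protein builds up in the cytosol, whereas Hspa5 answers to the unfolded protein response of the endoplasmic reticulum, the compartment through which the proteases of mast cell granules are made.

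Itgb7, which encodes integrin β7, had 279.6, 266, 317, 259 and 312 CPM (counts scaled to 1 common library total after TMM normalisation) in the untreated resident libraries. It had 232, 139, 149.8, 218 and 277 CPM in the MC903 resident libraries and 416, 459.6, 660.2 and 397 CPM in the bone marrow libraries. The bone marrow libraries lay above all others. The difference from MC903 resident cells was 1.25 ± 0.21 on the log2 scale (edgeR adjusted p = 0.00237), and the difference from untreated resident cells was 0.75 ± 0.21 (edgeR adjusted p = 0.0335). The latter was not called without library 2, 4, 13 or 14, where the adjusted p reached 0.162.

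Total counts ranged from 13068078 to 31781926 per library, and the lowest count of any of the 10 genes in any library was 38. Libraries 7, 8 and 15 had the most genes detected. Mitochondrial counts averaged 1.44% of the total in untreated resident, 2.75% in MC903 resident and 2.89% in bone marrow libraries. Summed over 11 mast cell markers, CPM lay between 89648 and 163451 in every library. Library 15 stood apart: 10 markers of macrophages and dendritic cells summed to 14770 CPM there, against a range of 31.9 to 164 CPM over the resident libraries and a median of 189 CPM in the bone marrow group. Csf1r reached 1105 CPM and C1qb 2262 CPM in it, while Itgax and Flt3, markers of dendritic cells in the same list, reached at most 2.64 and 1.27 CPM in the bone marrow group. The calls of the 10 genes that include library 15 are given with and without it. The markers of keratinocytes summed to at most 12.9 CPM, fibroblasts 32 CPM, endothelial cells 39.9 CPM and T cells 84.1 CPM in any library. Neutrophil markers summed to at most 75.3 CPM, in library 15, where Csf3r gave 74.9 CPM, and S100a9 and Retnlg were at 0 in all bone marrow libraries. The 3 basophil markers summed to 435 to 738 CPM in the resident libraries and to 1513, 754, 667 and 271 CPM in bone marrow libraries 11, 13, 14 and 15. Most of the sum in the resident libraries was Cd200r3, at 426 to 713 CPM, and Prss34 reached at most 42.2 CPM there. Mcpt8 reached 980.2 CPM in the bone marrow group, in library 11, against at most 57.3 CPM in the resident libraries, and its part in the results was not tested. In such pools, fewer cells of a type and less RNA per cell cannot be told apart.

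Over the 3 comparisons most calls in these genes were falls, from untreated to MC903 resident cells or from either of these to bone marrow cells. The co-chaperone Bag3 fell from untreated to MC903 resident cells. Its further fall to bone marrow cells was a call that 4 of 9 single libraries left out removed. Between MC903 and untreated resident cells, Bag3 and Hspa5 fell and edgeR called no member higher, although Hspe1 was called higher by DESeq2 (0.83 on the log2 scale, adjusted p = 0.025) and under other settings given with that gene. From MC903 resident to bone marrow cells, Dnajb1 and Bag3 fell and Hspa5 rose, a rise whose call was lost with most single libraries left out. From untreated resident to bone marrow cells, Dnajb1, Bag3, Hsp90aa1 and Hspa8 fell and Hspe1 rose. The calls of Hsp90aa1 and Hspe1 were lost with most single libraries left out. No bone marrow cells of untreated mice were measured, so MC903 and cell type cannot be told apart in this comparison.

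Genes were called at an adjusted p under 0.05 in edgeR's quasi-likelihood test, with Benjamini-Hochberg adjustment over all 21014 genes tested. Of the 10 members, 2 were called between MC903 and untreated resident cells, where 2.25% of all genes were called: 0 were higher, against 0.571% of all genes, and 2 were lower, against 1.68%. Their median log2 difference was -0.56, beside 0.24 over all genes tested. In bone marrow against MC903 resident cells 3 were called, against 2.27% of all genes: 1 was higher, against 1.32%, and 2 were lower, against 0.952%. The median was -0.44, beside -0.28. In bone marrow against untreated resident cells 5 were called, against 6.87% of all genes: 1 was higher, against 3.49%, and 4 were lower, against 3.37%. The median was -0.49, beside -0.14. At an unadjusted p under 0.05 the members numbered 8, 4 and 6 in the 3 comparisons, against 12.6%, 17.7% and 21.3% of all genes. The comparisons share groups, so their counts are not independent. The shares and medians over all genes depend on the genes counted, since many of the 21014 averaged less than 10 CPM. With a filter at a mean of 10 CPM, 646, 558 and 1763 of 8209 genes were called. The medians of those genes were 0.03, 0.02 and 0.02.

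The library ranges did not overlap for 2 members between MC903 and untreated resident cells (0 higher, 2 lower), against 5.33% of all genes (2.17% higher, 3.16% lower). They did not overlap for 2 in bone marrow against MC903 resident cells (0 higher, 2 lower), against 8.29% of all genes (3.97% higher, 4.32% lower). They did not overlap for 4 in bone marrow against untreated resident cells (0 higher, 4 lower), against 10.4% of all genes (5.13% higher, 5.28% lower).

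**Figure D1:**
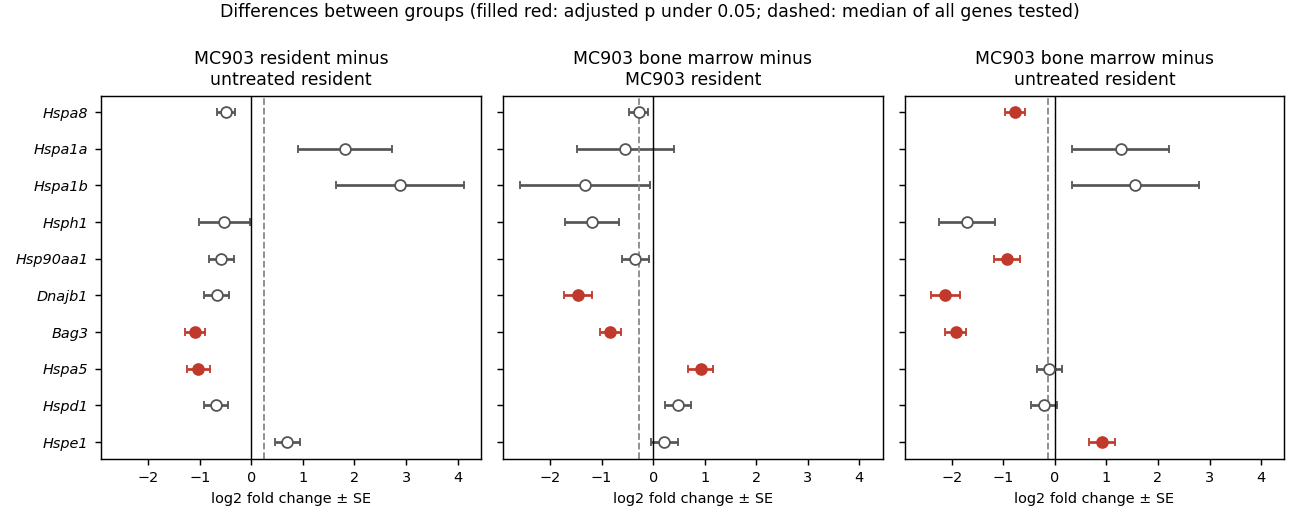
Log2 fold change (x axis) of each of the 10 genes (y axis) in the 3 comparisons, with bars of 1 standard error; filled red points have an edgeR adjusted p under 0.05, and the dashed line is the median of all 21014 genes tested. Bag3 is filled in all 3 panels, at -1.10, -0.83 and -1.93, while the open points of Hspa1a and Hspa1b have the widest bars.

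**Figure D2:**
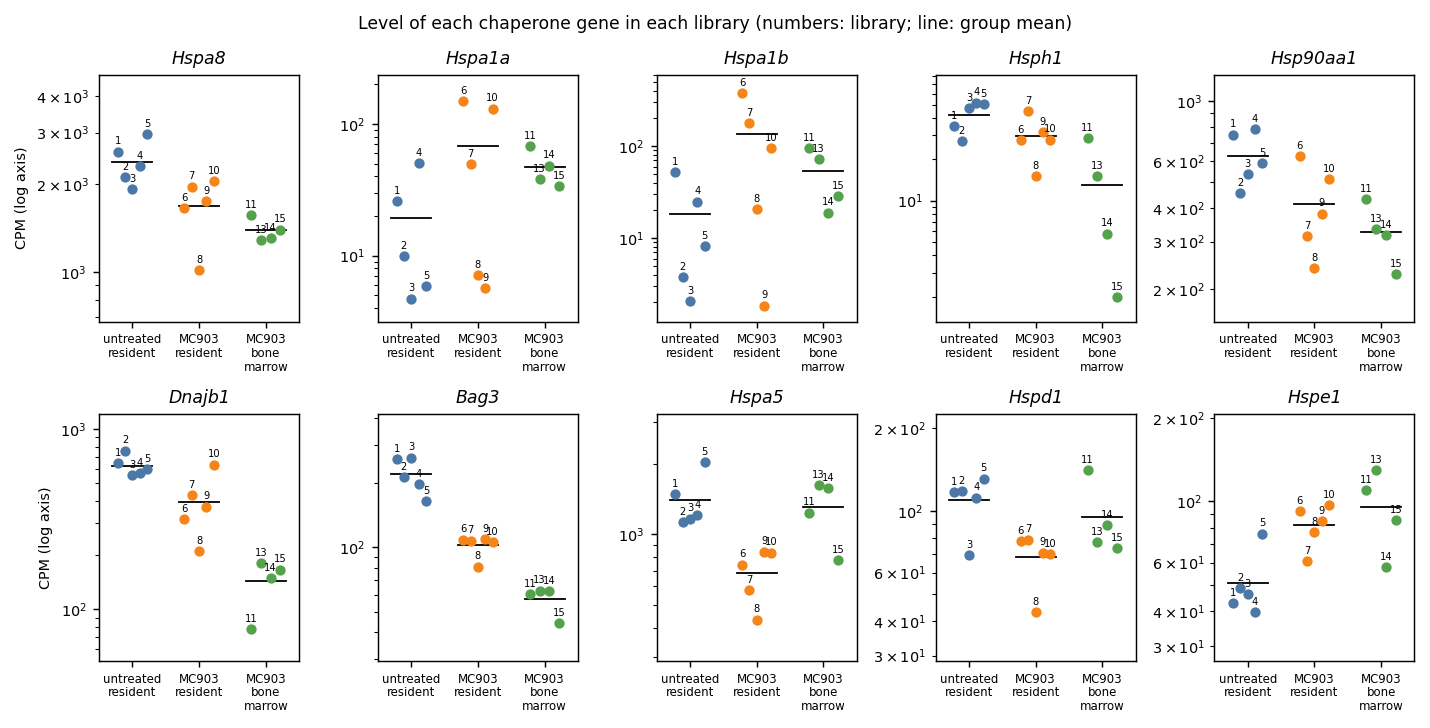
Level of each gene in each library, in CPM on a log axis that differs between panels; points are libraries, marked by number and grouped as untreated resident, MC903 resident and MC903 bone marrow, and the line is the group mean. The Bag3 points of the 3 groups form separate bands, whereas those of Hspa1b in MC903 resident cells run from 1.85 to 376 CPM.

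Bag3 binds the ATPase domain of Hsp70 and links it to small heat shock proteins and to autophagy. The gene (ENSMUSG00000030847.8) lies on the plus strand at chr7:128523616-128546981 of GRCm38. In untreated resident libraries 1 to 5 it had 259, 213, 262, 197 and 165 CPM. In MC903 resident libraries 6 to 10 it had 108, 108, 81.2, 109 and 106 CPM, and in bone marrow libraries 11, 13, 14 and 15 it had 60.6, 62.7, 62.5 and 44.1 CPM. None of the 3 ranges overlapped. Bag3 fell by 1.10 ± 0.19 on the log2 scale from untreated to MC903 resident cells (2.14-fold lower, edgeR adjusted p = 0.00197) and was 1.93 ± 0.21 lower in bone marrow than in untreated resident cells (3.81-fold lower, edgeR adjusted p = 5.42e-06). Both calls held without each library in turn, the latter at -1.82 without library 15. The difference from MC903 resident to bone marrow cells was -0.83 ± 0.20 (edgeR adjusted p = 0.031), and it was not called without library 11, 13, 14 or 15, where the adjusted p was at most 0.0776 (-0.72 without library 15). Nor was it called with no filter on low counts (-0.78, edgeR adjusted p = 0.154) or without libraries 7, 8 and 15 together (-0.81, 0.0695).

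Dnajb1 is the main stress-inducible J-domain partner of Hsp70 in the cytosol. It (ENSMUSG00000005483.10) lies on the plus strand at chr8:83608193-83612653. Its levels were 649, 761, 559, 571 and 603 CPM in untreated resident libraries, and 318, 429, 212, 373 and 636 CPM in MC903 resident libraries 6 to 10. Bone marrow libraries 11, 13, 14 and 15 had 77.6, 181, 149 and 166 CPM, all below every resident library. Library 10 alone of the MC903 resident libraries reached the untreated range. Dnajb1 fell by 1.46 ± 0.27 on the log2 scale from MC903 resident to bone marrow cells (2.74-fold lower, edgeR adjusted p = 0.00471). Against untreated resident cells the bone marrow libraries were 2.13 ± 0.28 lower (4.38-fold lower, edgeR adjusted p = 4.88e-05). Both calls held without each library in turn, also without library 15 (-1.53 and -2.21) and without library 11, the lowest for Dnajb1 and the highest for basophil markers (-1.27 and -1.93). The difference between the resident groups, -0.68 ± 0.25, did not pass (edgeR adjusted p = 0.199), although it did with no filter on low counts (0.0215) and with limma (0.0116).

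Hspa8 is the constitutive Hsp70 of the cytosol, which also strips clathrin from vesicles and feeds chaperone-mediated autophagy. It (ENSMUSG00000015656.17) lies on the plus strand at chr9:40800984-40810087. Of the 50-base windows of its annotated transcripts, 39.4% also occurred in transcripts of 16 other genes. Its CPM in the untreated resident libraries were 2579, 2113, 1920.4, 2299.6 and 2963. In MC903 resident libraries they were 1657, 1959, 1012, 1747 and 2048, and in bone marrow libraries 1560.2, 1285, 1307 and 1395. Every bone marrow library lay below every untreated one, while the resident groups overlapped. Hspa8 was 0.78 ± 0.19 lower on the log2 scale in bone marrow than in untreated resident cells (1.71-fold lower, edgeR adjusted p = 0.0143), a call that held without each library in turn (-0.77 without library 15). The differences between MC903 and untreated resident cells (-0.50 ± 0.18, edgeR adjusted p = 0.182) and between bone marrow and MC903 resident cells (-0.28 ± 0.19, edgeR adjusted p = 0.46) did not pass. The former passed with no filter (0.0127) and with limma (0.0431).

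Hsp90aa1 encodes the inducible form of cytosolic Hsp90, which holds kinases and steroid receptors ready for activation. It (ENSMUSG00000021270.13) lies on the minus strand at chr12:110690605-110702728. Of its 50-base transcript windows, 47.5% also occurred in other genes. It had 749.8, 455, 536, 785 and 589.8 CPM in untreated resident libraries and 625, 315, 239, 381 and 514 CPM in MC903 resident libraries. Bone marrow libraries had 431, 334, 317 and 227 CPM, all below the lowest untreated library. Hsp90aa1 was 0.93 ± 0.26 lower on the log2 scale in bone marrow than in untreated resident cells (1.91-fold lower, edgeR adjusted p = 0.0307). It was no longer called without library 1, 4, 13, 14 or 15. Without library 15 the difference was -0.79 and the adjusted p 0.0795, the highest of these 5. The other differences were -0.59 ± 0.24 (MC903 resident minus untreated, edgeR adjusted p = 0.266) and -0.34 ± 0.25 (bone marrow minus MC903 resident, edgeR adjusted p = 0.51).

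Hspa1a and Hspa1b encode the heat-inducible Hsp70, of which resting cells hold little. Hspa1a (ENSMUSG00000091971.3, chr17:34969190-34972156) and Hspa1b (ENSMUSG00000090877.3, chr17:34956436-34959238) lie on the minus strand with 9951 bases between them. Of 1923 aligned bases of the coding sequences, 1915 were identical, and of the 250 bases before the gene starts, 247 were. The pair is shown because the near identity extends to the promoter and bears on how far the counts of the copies can be told apart. The stretches at chr17:34972207-34972286 (Hspa1a) and chr17:34959289-34959368 (Hspa1b), from RefSeq on GRCm38.p6, minus strand and 5′ to 3′, span 130 to 51 bases before each start. Capitals mark GAAGATTC, a match to GAANNTTC (head-to-head repeats of the heat shock element's GAA unit), and ATTGG, the reverse complement of CCAAT.
Hspa1a: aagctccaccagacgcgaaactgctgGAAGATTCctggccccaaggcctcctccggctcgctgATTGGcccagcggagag
Hspa1b: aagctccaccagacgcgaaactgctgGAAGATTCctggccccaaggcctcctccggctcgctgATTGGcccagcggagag
In these 80 bases the genes did not differ.

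In both resident groups the levels of this pair differed more between libraries than those of the other 8 members, whereas in the bone marrow group those of Hsph1 did. Hspa1b had 52.6, 3.73, 2.07, 25.0 and 8.13 CPM in untreated resident libraries 1 to 5. In MC903 resident libraries 6 to 10 it had 376, 179, 20.7, 1.85 and 94.4 CPM, and in bone marrow libraries 95.7, 72.0, 19.0 and 28.5 CPM. The highest library was 203-fold above the lowest, and both belonged to the MC903 resident group. Hspa1a had 25.8, 9.93, 4.73, 50.6 and 5.90 CPM in untreated libraries. In MC903 resident libraries it had 148, 49.4, 7.17, 5.69 and 130.5 CPM, and in bone marrow libraries 67.6, 38, 48.2 and 33.7 CPM. Libraries 6, 7 and 10 were high for both genes, libraries 8 and 9 were low for Hspa1a, and every group overlapped every other.

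None of the differences of this pair passed. Between MC903 and untreated resident cells they were 2.88 ± 1.24 for Hspa1b (edgeR adjusted p = 0.349) and 1.82 ± 0.91 for Hspa1a (edgeR adjusted p = 0.459). Against untreated cells the bone marrow libraries differed by 1.56 ± 1.23 (Hspa1b, edgeR adjusted p = 0.537) and 1.28 ± 0.94 (Hspa1a, edgeR adjusted p = 0.498). Against MC903 resident cells they differed by -1.32 ± 1.26 (Hspa1b, edgeR adjusted p = 0.641) and -0.54 ± 0.95 (Hspa1a, edgeR adjusted p = 0.82), the sign of Hspa1a turning to 0.43 with limma. With the counts of both genes added, means were 37.7 ± 36.0 CPM (SD, n = 5) in untreated resident, 203 ± 208 (SD, n = 5) in MC903 resident and 101 ± 46.9 (SD, n = 4) in bone marrow cells, and the resident groups differed by 2.43 ± 1.04 (edgeR adjusted p = 0.346). Of the 50-base windows of the annotated transcripts, 66.3% in Hspa1a and 62.3% in Hspa1b also occurred in transcripts of another gene. How the counting treated such reads is not given in the sources used here, so the split between the copies is uncertain. On the opposite strand, exons of Gm20481 cover 19.0% of those of Hspa1a.

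Hsph1 encodes the inducible Hsp110, which releases ADP from Hsp70 and with it takes apart protein aggregates. It (ENSMUSG00000029657.15) lies on the minus strand at chr5:149614287-149636376. The bases before its RefSeq starts are shown for the other arrangement of the heat shock repeat: capitals mark TTCTCGAA, a match to TTCNNGAA, in RefSeq bases of GRCm38.p6 at chr5:149636351-149636380, minus strand. RefSeq gives 2 starts, and the marked bases lie 33 to 26 bases before one and 54 to 47 before the other. In the gene annotation an exon of Hsph1 (149636320 to 149636376) covers the marked bases.
Hsph1: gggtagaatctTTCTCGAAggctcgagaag
By group mean TPM, Hsph1 was the lowest member in all 3 groups, although its rank by library ran from 8 to 10. It had 34.7, 27.1, 47.4, 51.6 and 50.6 CPM in untreated resident, 27.6, 44.9, 15.2, 31.4 and 27.8 CPM in MC903 resident and 28.7, 15.2, 5.77 and 1.98 CPM in bone marrow libraries. The bone marrow values ran furthest apart, with library 11 inside the resident range and library 15, at 39 counts, the lowest. The bone marrow libraries differed from untreated cells by -1.71 ± 0.54 on the log2 scale (edgeR adjusted p = 0.063). This passed with no filter (0.00981), a filter at a mean of 10 CPM (0.0338), DESeq2 (0.0126) and limma (0.0414), and without library 11 (-2.48, 0.0065). Without library 15 it was -1.35 (edgeR adjusted p = 0.0895). The remaining differences were -0.52 ± 0.49 (MC903 resident minus untreated, edgeR adjusted p = 0.77) and -1.19 ± 0.53 (bone marrow minus MC903 resident, edgeR adjusted p = 0.249).

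Hspa5 encodes BiP, the Hsp70 of the endoplasmic reticulum and the sensor partner of the unfolded protein response. It (ENSMUSG00000026864.13) lies on the plus strand at chr2:34771970-34777547. The bases before its RefSeq start are shown because they hold an element known from that response: capitals mark a match to the endoplasmic reticulum stress element (CCAAT, any 9 bases, then CCACG), in RefSeq bases of GRCm38.p6 at chr2:34772020-34772049, plus strand, 70 to 41 bases before the RefSeq start. The gene annotation used for the count table's identifiers starts further upstream, and there the stretch lies within an exon of Hspa5 (34771970 to 34772146).
Hspa5: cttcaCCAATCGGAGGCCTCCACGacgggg
The level of Hspa5 was 1479, 1128, 1167, 1211 and 2035 CPM in untreated resident libraries. In MC903 resident libraries it was 743, 577, 433, 845 and 835 CPM, all below the untreated range. In bone marrow libraries 11, 13 and 14 it was 1238, 1616 and 1575 CPM, within the untreated range, whereas library 15 had 778 CPM, within the MC903 resident range.

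Hspa5 fell by 1.03 ± 0.23 on the log2 scale from untreated to MC903 resident cells (2.04-fold lower, edgeR adjusted p = 0.0145). It was not called without library 7, where the adjusted p was 0.0533, nor without libraries 7, 8 and 15 together (-0.79, 0.0695). Between MC903 resident and bone marrow cells it rose by 0.92 ± 0.24 (1.90-fold higher, edgeR adjusted p = 0.0433). Without library 15, which carried the macrophage markers, this difference was 1.11 ± 0.22 (edgeR adjusted p = 0.00432), and without library 6, 7, 8, 9, 11, 13 or 14 it was not called, with an adjusted p of at most 0.146. It was also not called with DESeq2 size factors (0.0574), with only the groups compared in the fit (0.0766) or without libraries 7, 8 and 15 (0.0644). Bone marrow and untreated resident cells differed by -0.11 ± 0.24 (edgeR adjusted p = 0.86), and the sign turned without library 5 or 15 (0.06 and 0.08).

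Hspd1 (Hsp60) and Hspe1 (Hsp10) form the barrel and the lid of the mitochondrial chaperonin. Hspd1 (ENSMUSG00000025980.14) runs on the minus strand at chr1:55077835-55088243 and Hspe1 (ENSMUSG00000073676.4) on the plus strand at chr1:55088132-55091307, head to head. Their exons share 112 bases on opposite strands, 7.60% of those of Hspe1. Of 50-base windows of the transcripts, 42.1% in Hspd1 and 22.8% in Hspe1 also occurred elsewhere. The stretch before both RefSeq starts is shown because both genes have the same match there: at chr1:55088053-55088082, RefSeq bases of GRCm38.p6 read on the plus strand for Hspe1 and on the minus strand for Hspd1 hold in capitals a run of GAA and TTC units that alternate with 2 bases between them, in which the heat shock element of 3 units (GAANNTTC, any 2 bases, then GAA, or its reverse complement) was matched. The stretch lies 95 to 66 bases before the RefSeq start of Hspe1 and 150 to 121 before that of Hspd1, and in the gene annotation it is within an exon of Hspd1 (55087989 to 55088243).
Hspe1: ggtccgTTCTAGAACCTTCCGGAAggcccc
Hspd1: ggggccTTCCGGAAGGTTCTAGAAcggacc

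The levels of the genes differed in their pattern over the groups. Hspe1 had 42.9, 48.5, 46.2, 39.7 and 76.4 CPM in untreated resident libraries, 92.1, 60.7, 77.2, 84.8 and 97.0 CPM in MC903 resident libraries and 109.8, 129, 57.7 and 85.5 CPM in bone marrow libraries. Hspd1 had 117, 118, 69.3, 112 and 131 CPM in untreated resident libraries, 77.9, 78.9, 43.0, 70.9 and 70.0 CPM in MC903 resident libraries and 141, 77.1, 89.1 and 73.6 CPM in bone marrow libraries. For Hspe1 the untreated libraries other than library 5 lay below all MC903 libraries, whereas for Hspd1 the untreated libraries other than library 3 lay above all MC903 resident ones. Hspe1 was 0.91 ± 0.26 higher on the log2 scale in bone marrow than in untreated resident cells (1.88-fold higher, edgeR adjusted p = 0.0371). That call was lost without library 1, 2, 3, 4, 11 or 13 (adjusted p at most 0.165), with no filter (0.0679), with only the groups compared (0.0707) and without libraries 7, 8 and 15 (0.0533), and held without library 15 alone (0.97, 0.0398).

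The further Hspe1 differences were 0.70 ± 0.25 (MC903 resident minus untreated, edgeR adjusted p = 0.178) and 0.21 ± 0.26 (bone marrow minus MC903 resident, edgeR adjusted p = 0.725). The former passed when TMM factors came only from genes averaging 10 CPM or more (0.0472), with a filter at that level (0.0256) and DESeq2 (0.025). Hspd1 differed by -0.69 ± 0.24 between MC903 and untreated resident cells (edgeR adjusted p = 0.164). It differed by 0.48 ± 0.25 between bone marrow and MC903 resident cells (edgeR adjusted p = 0.326) and by -0.20 ± 0.25 between bone marrow and untreated resident cells (edgeR adjusted p = 0.718).

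The ratio of Hspe1 to Hspd1, each in TPM (transcript abundance: counts per gene length, scaled to the same total in each library), does not depend on how libraries were scaled against each other. The pair was chosen after the values of both genes had been seen, so the ratio is given as a description with no test. It was 0.657, 0.735, 1.19, 0.634 and 1.04 in untreated resident libraries, 2.12, 1.38, 3.22, 2.15 and 2.48 in MC903 resident libraries and 1.40, 3.01, 1.16 and 2.08 in bone marrow libraries. All MC903 resident libraries lay above all untreated ones. The difference was 1.41 on the log2 scale, or 2.65-fold. Bone marrow libraries differed from untreated ones by 1.11 (2.16-fold), with overlap, and by 1.04 without library 15. The bone marrow and MC903 resident libraries differed by -0.29.

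**Figure D3:**
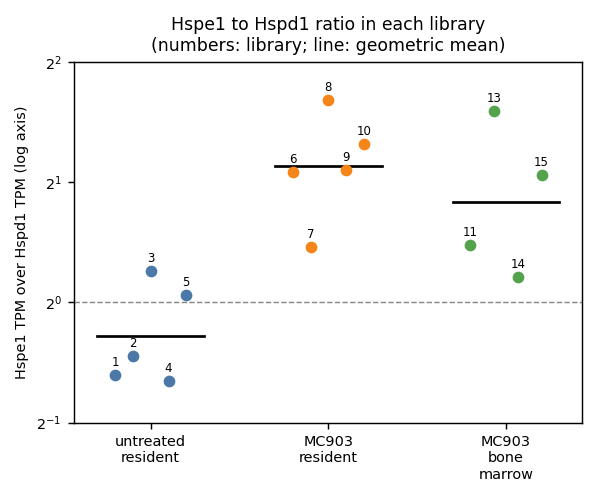
Ratio of Hspe1 to Hspd1 (TPM over TPM, log axis) in each library; points are libraries, marked by number, lines are geometric means of the groups, and the dashed line is equal TPM. The MC903 resident libraries lie between 1.38 and 3.22, above the untreated libraries at 0.634 to 1.19.

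Of the 10 genes, 8 had a promoter in the RefSeq table, and Hspa8 and Hsp90aa1 had none there. The 250 bases before the start were searched on both strands in 32851 promoters, as counted from RefSeq starts. Only exact matches to each pattern were counted, so a promoter without a match may still hold a mismatched form of it. The heat shock element of 3 units occurred in 0.47% of all promoters and, among the members, in those of Hspd1 and Hspe1. GAANNTTC, which the longer pattern holds, occurred in 6.69% of all promoters and in Hspa1a, Hspa1b, Hspd1 and Hspe1. TTCNNGAA, likewise contained in the longer pattern, occurred in 7.17% of all promoters and in Hsph1, Hspd1 and Hspe1. The stress element occurred in 0.113% of all promoters and in that of Hspa5. CCAAT alone, which that pattern contains, was in 33.9% of all promoters and in 5 members (Hspa1a, Hspa1b, Hspa5, Hsph1 and Dnajb1). TATAAA was in 12.4% of all promoters and in 0 of the 8. Members were counted as genes, and a gene can have several promoters. Of 27025 genes, 0.514%, 7.73%, 8.1%, 0.13%, 37.5% and 14.3% had the patterns in the order given. Members with the same pattern could differ in their values: in bone marrow against untreated resident cells Hspe1 was at 0.91 and Hspd1 at -0.20.

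Per transcript length, Hspa8 and Hspa5 were the most abundant members. Hspa8 led in 12 of 14 libraries and Hspa5 in the other two. In untreated resident cells the mean TPM ran from Hspa8 (1160.0 ± 205, SD, n = 5) through Hspa5 (698 ± 185), Dnajb1 (412 ± 56.5), Hsp90aa1 (334 ± 79.8), Bag3 (181 ± 45.8), Hspd1 (86.8 ± 17.6) and Hspe1 (72.1 ± 19.5) to Hspa1b (14.1 ± 17.3), Hspa1a (13.5 ± 12.9) and Hsph1 (12.2 ± 2.97). In that order the library ranges of Dnajb1 and Hsp90aa1, of Hspd1 and Hspe1, and of the last 3 genes overlapped. In MC903 resident cells all neighbours in the order overlapped. In bone marrow cells Hspa8 (508 ± 50.8, SD, n = 4) and Hspa5 (489 ± 171) overlapped each other and lay clear of Hsp90aa1 (129 ± 21.0), and Hspe1 (100.3 ± 27.1) stood above Dnajb1 (72.9 ± 28.0) in the order, with overlap.

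Expressed as a share of the summed TPM of the 10 genes, Dnajb1 made up 14%, 12.4% and 5.02% in untreated resident, MC903 resident and bone marrow cells, and Bag3 6.18%, 4.25% and 2.44%. Hspa5 made up 23.1%, 16.8% and 33.1%. Hspe1 made up 2.42%, 6.02% and 7.05%, with SDs of 0.499, 1.85 and 1.96 percentage points. The share of Hspa1b was 0.439% ± 0.491 (SD, n = 5), 4.44% ± 4.71 (SD, n = 5) and 2.02% ± 1.20 (SD, n = 4), and it was 0.246% in untreated resident cells without library 1 and 2.62% in MC903 resident cells without library 6, values computed after the shares were seen. The share of Hspa8 was 38.8%, 40.3% and 35.6%. The summed TPM was 2984 ± 455 (SD, n = 5), 1658 ± 617 (SD, n = 5) and 1445 ± 200 (SD, n = 4), with library 8 lowest at 709. These sums are not TMM-scaled. The 10 genes held a mean of 0.523%, 0.391% and 0.335% of all counts, a smaller difference between groups than by TPM. Library 8, which had the lowest total count, was the lowest of its group for 7 of the 10 genes in CPM, and the part of depth in this was not tested. These shares are descriptions and were not tested.

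**Figure D4:**
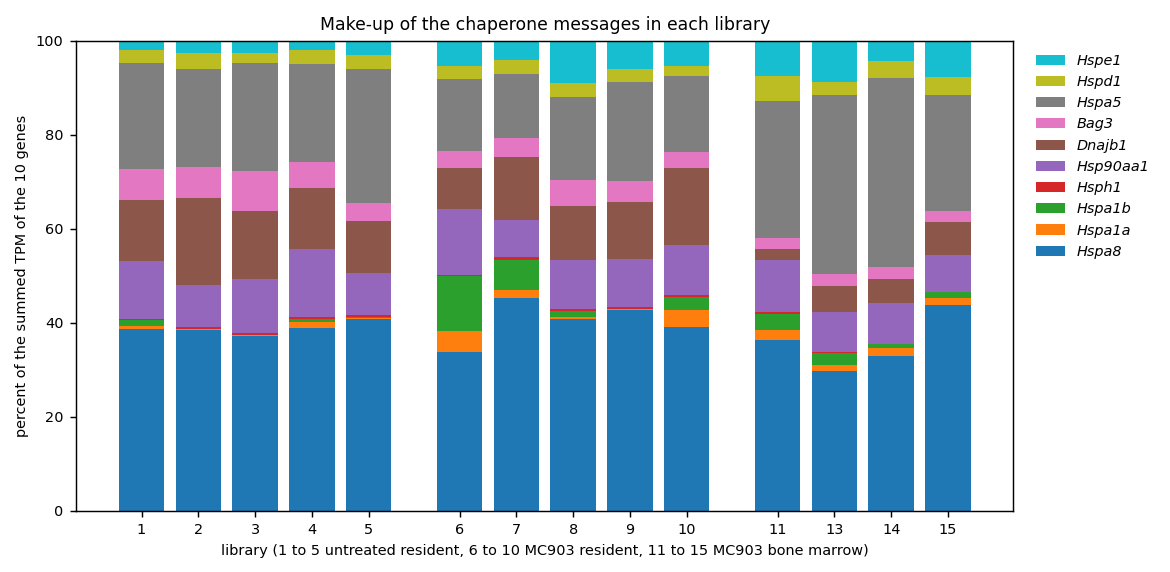
Percent of the summed TPM of the 10 genes (y axis) held by each gene (colours) in each library (x axis; 1 to 5 untreated resident, 6 to 10 MC903 resident, 11 to 15 bone marrow). Hspa8, at the foot of each bar, holds a mean of 38.8%, 40.3% and 35.6% in the 3 groups, and Hspa1b is broadest in library 6.

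Of 33 other cytosolic chaperone and co-chaperone genes, 31 were tested. Between MC903 and untreated resident cells 4 fell and 0 rose (median -0.35, all genes 0.24), where 1.68% of all genes were called lower and 0.571% higher. Dnajb6, a J-domain protein that keeps aggregation-prone proteins soluble, averaged 531 ± 55.1 CPM in untreated and 161 ± 21.7 CPM in MC903 resident cells (SD, n = 5 each) and fell by 1.72 ± 0.17 (edgeR adjusted p = 6.8e-06). Dnajb2 (-2.08 ± 0.41, edgeR adjusted p = 0.00565), Dnajb4 (-1.96 ± 0.35, edgeR adjusted p = 0.00296) and Dnaja1 (-1.22 ± 0.20, edgeR adjusted p = 0.00126) fell too. All 4 calls held without each library in turn. Bone marrow against MC903 resident cells gave no such call: 0 of the 31 genes were called by edgeR, against 2.27% of all genes (median 0.11, all genes -0.28). Against untreated resident cells 8 fell and 0 rose (median -0.14, all genes -0.14; 3.37% of all genes lower and 3.49% higher), with Dnajb4 (-2.60 ± 0.40, edgeR adjusted p = 0.000214), Dnajb2 (-2.21 ± 0.45, edgeR adjusted p = 0.00302) and Hspa2, an Hsp70 best known from the testis (-2.09 ± 0.52, edgeR adjusted p = 0.0155; 0.0511 with only the groups compared), lowest.

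No heat shock transcription factor gene was called by edgeR in any of the 3 comparisons. Hsf1, the main activator of the inducible chaperones, averaged 33.9 ± 9.47 CPM (SD, n = 5) in untreated resident, 33.5 ± 13.5 (SD, n = 5) in MC903 resident and 34.0 ± 15.3 (SD, n = 4) in bone marrow cells. Hsf2 had 2.23 to 5.54 CPM in untreated and 7.87 to 14.5 CPM in MC903 resident libraries, without overlap, but the difference of 1.85 ± 0.68 did not pass (edgeR adjusted p = 0.194). In bone marrow libraries it ran from 2.48 to 16.2 CPM. Hsf4 and Hsf5 averaged at most 1.39 CPM in any group. Hsbp1, which binds heat shock factor 1, averaged 164 ± 48.6, 181 ± 24.6 and 153 ± 28.2 CPM. Of the 14 subunits of the TRiC chaperonin and of prefoldin, which fold actin and tubulin, 0 were called in any comparison by edgeR (medians -0.12, 0.26 and 0.22). Over all genes tested 2.25%, 2.27% and 6.87% were called in the 3 comparisons, with medians of 0.24, -0.28 and -0.14.

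Other genes of the endoplasmic reticulum list (28 tested) moved in both directions. Between MC903 and untreated resident cells 1 rose and 3 fell (median 0.27, all genes 0.24; 0.571% of all genes higher and 1.68% lower). Calr, a lectin chaperone that binds calcium, rose from 100.04 ± 15.1 to 239 ± 34.2 CPM (1.26 ± 0.19, edgeR adjusted p = 0.000632), while the J-domain gene Dnajb9 (-1.92 ± 0.35, edgeR adjusted p = 0.00326) and the transcription factor gene Atf4 (-1.30 ± 0.17, edgeR adjusted p = 0.000135) fell. Herpud1, a gene of protein disposal, fell by 1.19 ± 0.29 (edgeR adjusted p = 0.0282), a call kept in 2 of 10 leave-outs (libraries 2 and 10) with an adjusted p up to 0.0986. In bone marrow against MC903 resident cells 5 rose and 0 fell (median 0.44, all genes -0.28; 1.32% of all genes higher and 0.952% lower), led by the disulfide isomerase gene Pdia4 (72.1 ± 25.4 to 228 ± 45.6 CPM, 1.66 ± 0.25, edgeR adjusted p = 0.000839), which held without each library in turn. Sdf2l1, a cofactor of BiP (1.27 ± 0.31, edgeR adjusted p = 0.0297), was lost without library 6, 7, 8, 9 or 13, and Creld2 (1.16 ± 0.29, edgeR adjusted p = 0.038) without library 6, 7, 8, 10, 11, 13 or 14, with adjusted p up to 0.179 and 0.141. Calr (0.97 ± 0.20, edgeR adjusted p = 0.0093) and Pdia6 (1.05 ± 0.23, edgeR adjusted p = 0.0165) were lost without library 13 (0.0796 and 0.0817), and Pdia6 also without library 7. Of the 5 calls, 1 was kept without library 13, 2 without library 7 or without libraries 7, 8 and 15, and 3 without library 6 or 8.

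Of this list, 8 genes rose and 4 fell in bone marrow against untreated resident cells (median 0.44, all genes -0.14; 3.49% of all genes higher and 3.37% lower). Sdf2l1 (2.35 ± 0.31, edgeR adjusted p = 5.12e-05), Calr (2.23 ± 0.20, edgeR adjusted p = 9.06e-07) and Pdia4 (2.07 ± 0.26, edgeR adjusted p = 2.25e-05) were highest. Dnajb9 (-2.63 ± 0.39, edgeR adjusted p = 0.00018), Atf4 (-1.65 ± 0.19, edgeR adjusted p = 8.79e-06) and the phosphatase regulator Ppp1r15a (-1.42 ± 0.26, edgeR adjusted p = 0.0013) were lowest. Those 6 calls held without each library in turn. Atf6, a membrane-bound sensor of the response, was the other gene that fell (-1.08 ± 0.29, edgeR adjusted p = 0.0264), and it is named here after its value was seen. It was not called without library 1, 2, 3, 14 or 15 (adjusted p up to 0.0893), with no filter (0.115) or without libraries 7, 8 and 15 together (0.0758).

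Among 12 mitochondrial chaperone and protease genes, Hspa9, the Hsp70 that pulls proteins into the mitochondrion, fell from 301 ± 56.1 CPM (SD, n = 5) to 148 ± 27.1 (SD, n = 5) in MC903 resident cells (-1.03 ± 0.18, edgeR adjusted p = 0.00203) and was at 128 ± 5.19 (SD, n = 4) in bone marrow cells (-1.24 ± 0.19 against untreated cells, edgeR adjusted p = 0.000258). Both calls held without each library in turn. No other gene of the list was called between the resident groups, and edgeR called 0 between bone marrow and MC903 resident cells. Trap1, the mitochondrial Hsp90, was 1.12 ± 0.31 higher in bone marrow than in untreated cells (edgeR adjusted p = 0.032; up to 0.137 without library 2, 3, 5 or 13). Medians of the list were -0.18, 0.49 and 0.24 in the 3 comparisons, beside 0.24, -0.28 and -0.14 over all genes tested. Of all genes, 2.25%, 2.27% and 6.87% were called.

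Of 31 proteasome subunit genes, which carry the next step for proteins that do not fold, Psmc6 alone was called between the resident groups (-0.89 ± 0.21, edgeR adjusted p = 0.02; up to 0.0883 without library 1, 7, 8 or 9). Between those groups 2.25% of all genes were called (list median -0.06, all genes 0.24). Bone marrow against MC903 resident cells gave 0 calls by edgeR, against 2.27% of all genes (median 0.48, all genes -0.28). Of the 31 differences there, 30 were above 0. Library ranges did not overlap for 9 of the genes, against 8.29% of all genes. Against untreated cells 6 rose and 1 fell (median 0.39, all genes -0.14; 3.49% of all genes higher and 3.37% lower). Of the 6, 3 were kept without library 3, 11 or 13, Psmb1 and Psmb3 being lost each time. Psmb5, a catalytic subunit, rose the most, from 47.8 ± 12.8 to 113 ± 24.9 CPM (1.24 ± 0.23, edgeR adjusted p = 0.00175), and Psmc6 fell by 0.95 ± 0.22 (edgeR adjusted p = 0.00957), calls that held without each library in turn. Psmb1 (0.87 ± 0.23, edgeR adjusted p = 0.0229) was lost without library 2, 3, 11 or 13, and Psmd1 (0.87 ± 0.22, edgeR adjusted p = 0.02) without library 11 or 14, with adjusted p up to 0.0723 and 0.0765.

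**Figure D5:**
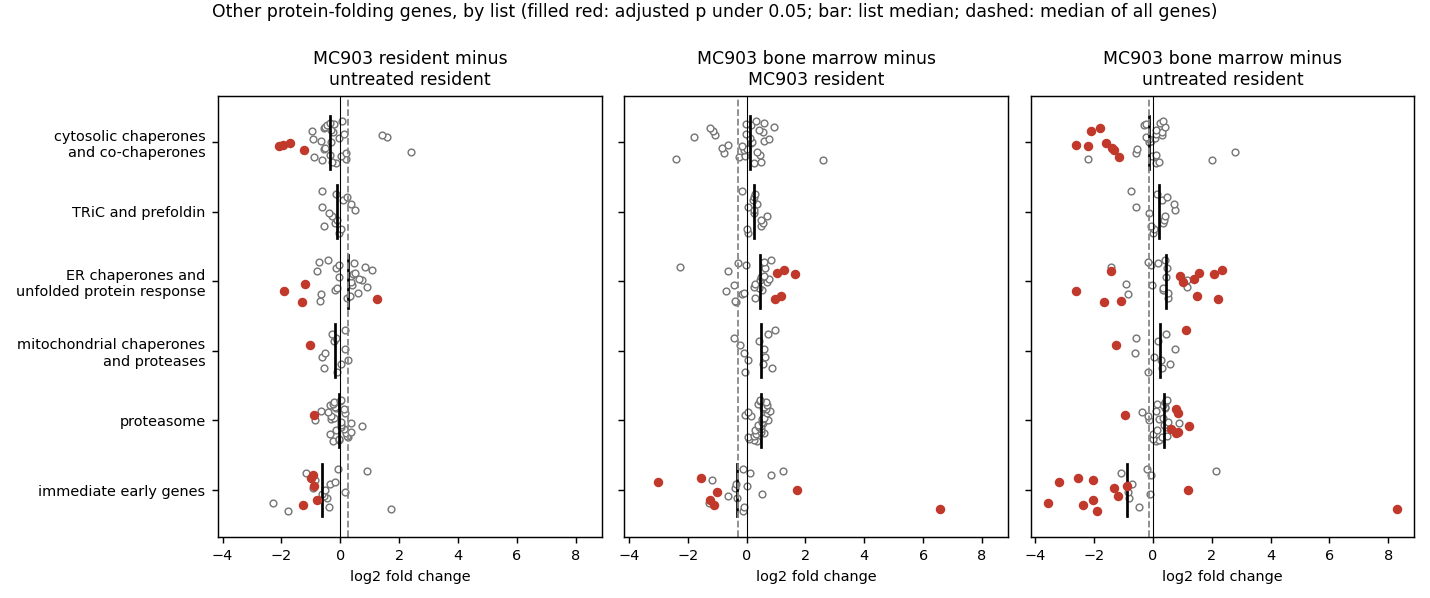
Log2 fold change (x axis) of each tested gene of 6 other lists (rows) in the 3 comparisons; filled red points have an edgeR adjusted p under 0.05, the bar is the list's median and the dashed line the median of all genes. Called cytosolic chaperones lie left of 0 in the first and the last panel, and called endoplasmic reticulum genes lie on both sides.

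Heat shock and immediate early genes are both known to rise while tissue is taken apart into single cells, so 21 immediate early genes were read beside the chaperones. Between MC903 and untreated resident cells 5 fell and 0 rose (median -0.63, all genes 0.24; 1.68% of all genes lower and 0.571% higher). Of the 5, 1 was kept without library 6, 2 without library 2, 3, 7 or 8, 3 without library 4 or 10, 3 with DESeq2 size factors or with TMM factors from genes averaging 10 CPM or more, and 0 without libraries 7, 8 and 15 together. Egr1 (-1.26 ± 0.27, edgeR adjusted p = 0.0108; 0.0501 without library 6), Klf6 (-0.99 ± 0.20, edgeR adjusted p = 0.00778) and Nfkbia (-0.92 ± 0.23, edgeR adjusted p = 0.035; called in 2 of 10 leave-outs, those of libraries 1 and 5) had the lowest differences. The adjusted p of these 3 without libraries 7, 8 and 15 were 0.179, 0.111 and 0.191. In bone marrow against MC903 resident cells 2 rose and 5 fell (median -0.34, all genes -0.28; 1.32% of all genes higher and 0.952% lower). Of the 5 that fell, 3 were kept without library 9, 10, 11 or 15, with limma and without libraries 7, 8 and 15, Egr1 and Ier2 being lost. Klf2 (-3.00 ± 0.51, edgeR adjusted p = 0.00505), Klf6 (-1.56 ± 0.22, edgeR adjusted p = 0.000381) and Egr3 (-1.23 ± 0.22, edgeR adjusted p = 0.00348) were lowest and Ier3 rose by 1.71 ± 0.21 (edgeR adjusted p = 5.87e-05).

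Of the immediate early genes, 10 fell and 2 rose in bone marrow against untreated resident cells (median -0.87, all genes -0.14; 3.37% of all genes lower and 3.49% higher). Klf2 (-3.17 ± 0.51, edgeR adjusted p = 0.00134), Klf6 (-2.55 ± 0.23, edgeR adjusted p = 9.06e-07) and Egr2 (-3.56 ± 0.92, edgeR adjusted p = 0.0381; up to 0.116 without library 1, 2, 3, 4, 13 or 14) were lowest. Ier3 rose by 1.20 ± 0.20 (edgeR adjusted p = 0.000699). Btg2, an antiproliferative gene, was at 0 to 1.88 CPM in untreated resident, 0 to 5.94 CPM in MC903 resident and 125 to 419.7 CPM in bone marrow libraries. It was called against both (8.30 ± 1.42, edgeR adjusted p = 0.00385, and 6.58 ± 1.31, edgeR adjusted p = 0.0246, the latter lost without library 6, 8, 9, 13 or 14, up to 0.0731). The labels give no account of how the skin was dissociated, and the part of handling in the chaperone values was not tested.

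As a description of which genes varied most like the members, log2 CPM was correlated over the 14 libraries among the 6019 to 6028 other genes that averaged 20 CPM or more. The libraries share their groups and their depth, so high values are common. The mean standardised level of the 10 members was closest to Thoc1 (Pearson r = 0.86), Tbc1d10a (0.83), Osbpl2 (0.82), Tmod3 (0.81), Prrc2b (0.81), Tomm70a (0.81), Brix1 (0.80) and Atf1 (0.80). The nearest gene was Tsc22d2 for Bag3 (0.97), Hnrnpf for Hspa5 (0.95), Prrc2b for Hsph1 (0.95), Zfhx3 for Dnajb1 (0.94), Ndufc2 for Hspe1 (0.91), Tmem30a for Hspa8 (0.91), Acsl4 for Hsp90aa1 (0.90) and Ube3a for Hspd1 (0.87). Hspa1a and Hspa1b were nearest to each other (0.87). Between pairs of members, r ran from -0.74 to 0.87 with a median of 0.13 over 45 pairs, of which 28 were above 0. With the group means taken out, r ran from -0.23 to 0.84 with a median of 0.34, and 41 pairs were above 0.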

How the data were processed

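RNA was measured in 14 libraries of sorted mouse ear-skin mast cells, made with SMART-Seq HT and Nextera XT per the labels' protocols. The deposited table holds whole-number read counts per gene, made with STAR, featureCounts and mm10 per the submitters' processing notes. Versions, the strand setting and the treatment of reads matching several places are not given in the sources used here. Of 55487 identifiers, 55394 matched a symbol without version (GENCODE on GRCm38), and 0 count columns were left unused. Groups came from the labels. The 10 members and all gene lists were chosen with earlier results of these data known.

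The low-count filter was filterByExpr, given the groups, a minimum count of 10 and a minimum total of 15. TMM factors and 1 quasi-likelihood model of the 3 groups (glmQLFit, robust; glmQLFTest) came from edgeR 4.0.16 under R 4.3.3. Benjamini-Hochberg adjustment ran over all genes tested, and an adjusted p under 0.05 was a call. Errors of log2 fold changes are standard errors, the absolute fold change over the square root of F. Amplified reads carry no molecular identifiers, so counts are not independent molecules. From each list of genes, the 3 highest and 3 lowest called genes per comparison were named, with every heat shock factor gene, Itgb7 and the genes closest in pattern. Endothelial and basophil markers were among 8 marker lists. Ratios and shares were computed per library (Python 3.11.15). Sequences and promoter starts came from RefSeq (GRCm38.p6).

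Changes were simulated in genes averaging 10 CPM or more. With 100 such genes changed 1 log2 unit, 7%, 7% and 3% were called in the 3 comparisons in the order of the report. With 2 log2 units, 64%, 56% and 57% were called. Unchanged genes made up 11.25%, 5.97% and 6.25% of all calls there. Alternatives were other size factors, other filters, DESeq2 1.42.0, limma 3.58.1 (voomWithQualityWeights), fits of only the groups compared, libraries left out, the Hspa1a and Hspa1b counts added, and a minimum log2 fold change of 1.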

Additional observations from a re-analysis of the deposited data

Results flagged for a closer look

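Each member was examined in each group for a library far from the rest. In 4 of 30 such sets, the gap from the extreme library to its neighbour was large against the whole range; chance gives about 1 in 20. Library 8 was lowest of the MC903 resident libraries for Hspd1 (43.0 CPM, the next being 70.0) and for Bag3 (81.2 CPM, the next being 105.7). Library 5 was highest of the untreated resident libraries for Hspe1 (76.4 CPM, the next being 48.5). Library 15 was lowest of the bone marrow libraries for Bag3 (44.1 CPM, the next being 60.6). Library 8 had the lowest total count, and library 15 the macrophage and dendritic cell markers at 14770 CPM. The part of either in these values was not tested.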

How the results depend on the processing

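No paired analysis was possible because the libraries carry 1 running number and the groups share none. Of 574 alternative values of the members, 520 kept direction and side of the threshold, 37 lost the call, 12 gained one and 5 turned in sign. The members called between MC903 and untreated resident cells (2) became 4 with no filter on low counts, 4 with limma, 1 without libraries 7, 8 and 15, and 1 to 2 with single libraries left out (1 without library 7). Between bone marrow and MC903 resident cells (3) they became 1 with a minimum log2 fold change of 1, 1 without libraries 7, 8 and 15, and 1 to 3 with single libraries left out (1 without library 11, 13 or 14). Between bone marrow and untreated resident cells (5) they became 2 with the minimum of 1, 6 with DESeq2, limma or a filter at a mean of 10 CPM, and 3 to 5 with single libraries left out (3 without library 1, 4 or 13). The 5 values that turned were Hspa1a between bone marrow and MC903 resident cells with limma (0.43), and Hspa5 between bone marrow and untreated resident cells with limma (0.079), without libraries 7, 8 and 15 (0.059), without library 5 and without library 15 (-0.24 to 0.076 over the single libraries left out). The cause was not tested. Among all genes, the 473, 477 and 1443 calls became 1072, 1720 and 2757 with DESeq2 and 1358, 2017 and 2194 with limma, 748 with no filter and 315 with only the groups compared (bone marrow against MC903 resident), and 253 without libraries 7, 8 and 15 (between the resident groups). With DESeq2 size factors the median of all genes moved by 0.15 between the resident groups and by -0.15 between bone marrow and MC903 resident cells, and the calls split 207 higher and 294 lower (120 and 353 with TMM) and 167 and 242 (277 and 200). When TMM factors came only from genes averaging 10 CPM or more, the medians moved by 0.21 and -0.16, and the splits were 250 and 266, and 178 and 254. No member turned in sign under either. A member not called is not shown to be equal between groups. The simulated call rates are over all genes, with a common biological coefficient of variation of 1.15, and do not describe the 7 members at 0.26 to 0.33.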
